A study of Mus musculus with 9 samples.

Results

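The mouse collagen genes were followed through 7 days of osteoblast differentiation in culture. They were taken by symbol: every protein-coding gene named Col, a type number, a and a chain number, which gave 44 genes of the 40548 gene IDs in the tables, and no expression value entered that choice. Calvarial osteoblasts, the bone-forming cells of the skull vault, were isolated from newborn C57BL/6 mice (postnatal day 2-3 in the labels), grown to confluency and moved to mineralization medium, which per the methods of the study contained ascorbic acid and β-glycerol phosphate. RNA was sequenced on day 0, before differentiation, and at days 4 and 7, with 3 libraries a stage, and the labels name no genetic change or drug for any of them. Cells without mineral were lifted with trypsin alone and mineralized cells with collagenase I before trypsin, so the enzyme moved with the stage and the 2 cannot be told apart.

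Collagens are the structural proteins of the extracellular matrix. Each molecule is a trimer of chains whose triple helix needs a glycine at the start of each Gly-X-Y triplet. Where a type has different chains, these come from separate genes. Fibril-forming collagens (types I, II, III, V, XI, XXIV and XXVII) build the ropes of bone, skin and cartilage, fibril-associated collagens decorate them, type IV makes the sheet of basement membranes, type VI makes beaded filaments around cells, and transmembrane collagens sit in the plasma membrane. Type I is the main protein of bone, the matrix in which mineral forms, and ascorbate is the cofactor of the hydroxylases that stabilise its helix.

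The helix can be read in the gene models, and it is shown here because it is what the members share beyond their names. In GENCODE M21 (GRCm38), the inner coding exons of the 11 fibril-forming genes were exactly 54 bases long in 48.6% of 627 cases, against 4.23% of 284 in the 6 type IV genes and 0.444% of 157295 in all other protein-coding genes. The longest unbroken run of triplets that each opened with a glycine codon (GGN) was 338 in Col1a1 and 339 in Col1a2, 216 in Col24a1 and 217 in Col27a1, and no more than 66 in a type IV gene. A 54-base coding exon of 5 members is printed 5′ to 3′ on the coding strand, with its glycine codons in capitals. They come from Col1a2 (chr6:4515481-4515534, plus strand), Col3a1 (chr1:45325360-45325413, plus), Col11a2 (chr17:34051480-34051533, plus), Col24a1 (chr3:145328731-145328784, plus) and Col4a1 (chr8:11245211-11245264, minus).
Col1a2: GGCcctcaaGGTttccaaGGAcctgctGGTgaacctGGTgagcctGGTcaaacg
Col3a1: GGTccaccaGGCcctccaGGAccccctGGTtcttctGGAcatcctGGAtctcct
Col11a2: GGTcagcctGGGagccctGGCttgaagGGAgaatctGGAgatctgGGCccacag
Col24a1: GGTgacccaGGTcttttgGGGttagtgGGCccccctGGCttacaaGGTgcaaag
Col4a1: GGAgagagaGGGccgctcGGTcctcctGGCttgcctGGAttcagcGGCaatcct

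The libraries held 7741204 to 14013219 reads on genes on day 0, 32820610 to 37306090 on day 4 and 10675858 to 15622755 on day 7. Levels are given as RPKM, reads scaled to gene length and library depth, which allows genes of different length to be compared. Days 0 and 7 share a table and were tested against each other with limma on log2(CPM + 0.5), CPM being reads scaled to depth alone, with Benjamini-Hochberg adjustment over all genes tested and a threshold of 0.05. Day 4 lies in a table of its own, so its libraries were only asked whether they overlap those of another stage, with no test. Summed RPKM of 10 osteoblast markers was 2992 to 3475 on day 0 and 9693 to 12434 on day 7, and that of 8 endothelial markers was at most 3.62 in any library, with Tie1 and Emcn at 0. Macrophage markers summed to 49.7 to 83 on day 0 and 99.4 to 132 on day 7, osteoclast markers to 101 to 134 and 233 to 243, osteocyte markers to 0.365 to 0.523 and 71.2 to 141, smooth muscle and pericyte markers to 1286 to 1455 and 1136 to 1252, and tendon markers to 160 to 208 and 89.1 to 124. Some sums were mostly 1 gene. On days 0 and 7, Lyz2 (macrophage) averaged 47.7 and 79.4, Ctsk (osteoclast) 120 and 232, and Acta2 (smooth muscle) 1333 and 1154. Dmp1 made most of the osteocyte sum on day 7, at a mean of 82.8. Other members could differ from the sum. The osteoclast marker Mmp9 averaged 0.708 and 0.335. In the smooth muscle list Myh11, Cnn1 and Des averaged higher on day 7, and Acta2 and Rgs5 lower. In bulk RNA, fewer cells of a type and less RNA per cell cannot be told apart, and the part of these other cells in the collagen values was not tested.

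Collagen transcripts took up more of the sequenced RNA after differentiation began. Reads on the 44 genes were 6.6% ± 0.717 (SD, n = 3) of all reads on genes on day 0, 12.2% ± 0.598 on day 4 and 11.9% ± 1.44 on day 7. The 3 day 0 libraries lay between 5.91% and 7.34%, below every library of the later stages, which lay between 10.6% and 13.5%. Within this pool the balance moved towards type I. Col1a1 and Col1a2 together made 48.7% ± 4.77 of the summed collagen RPKM on day 0, 60.9% ± 1.3 on day 4 and 69.7% ± 0.173 on day 7. The type VI genes made 10.6% ± 0.643 of the pool on day 0 and 5.55% ± 0.0406 on day 7, and the type IV genes 4.04% ± 0.0833 and 0.752% ± 0.0617, with no overlap between these stages. All members outside type I together summed to 4001 ± 561 RPKM on day 0, 5442 ± 157 on day 4 and 4106 ± 513 on day 7.

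**Figure D1:**
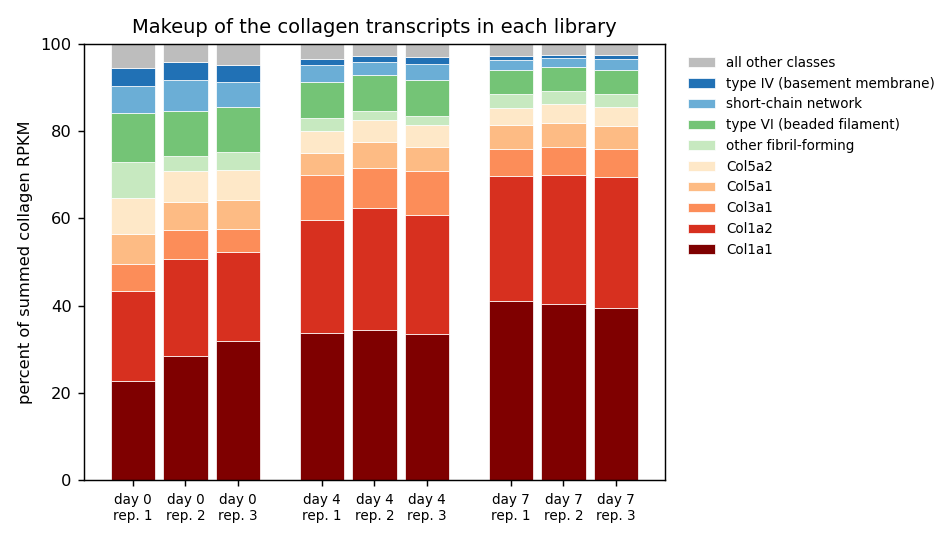
Share of the summed RPKM of the 44 collagen genes (y axis, percent) in each of the 9 libraries (x axis), stacked by gene or class. The 2 type I chains at the foot of the bars make 48.7% of the pool on day 0 on average and 69.7% on day 7, while type IV and type VI shrink.

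Of the 44 members, 36 passed the filter of a CPM averaging 1 or more over the libraries of days 0 and 7. At day 7, 13 were higher, where 12.6% of all 12712 genes tested were, and 11 were lower, where 18.6% of all genes were. The remaining 12 did not pass the threshold. Under median-of-ratios scaling, 15 members were higher and 11 lower, and the split over all genes went from 1602 higher and 2369 lower to 2843 and 2612. The members thus moved in both directions, and their median log2 fold change was -0.07 against -0.11 over all genes, while single members ranged from -3.17 to 7.36. By class, 6 of the 11 fibril-forming genes rose and 1 fell, 3 of the 4 type IV genes tested fell and none rose, and none of the 3 type VI genes tested passed. Of the 8 fibril-associated genes tested, 2 rose and 3 fell, and of the 3 transmembrane genes 1 rose and 2 fell.

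**Figure D2:**
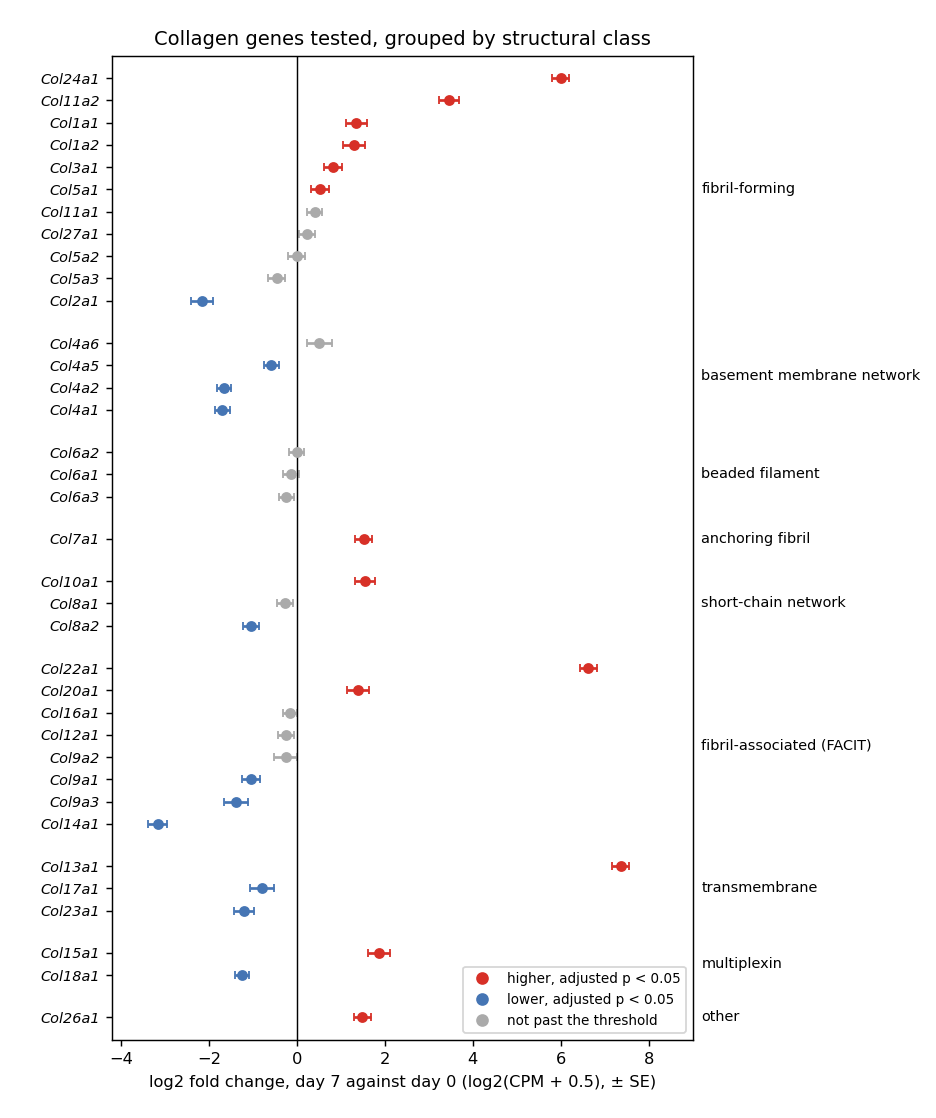
Log2 fold change on day 7 against day 0 with its standard error (x axis) for the 36 collagen genes tested, grouped by structural class (right) and colored by the limma call. Members of most classes fall on both sides of 0, from Col14a1 at -3.17 to Col13a1 at 7.36, while the type VI genes sit at -0.24 to -0.01.

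The type I chains were the most abundant collagen transcripts in every stage by the mean. Col1a1, which encodes the α1 chain (chr11:94936224-94953042), was at 1751, 2470 and 2252 RPKM in the day 0 libraries, 4442, 4914 and 4791 on day 4, and 6323, 4879 and 5222 on day 7. Col1a2, the α2 chain (chr6:4504814-4541544), was at 1593, 1915 and 1420, then 3433, 3964 and 3867, then 4434, 3590 and 3942. For both chains every later library lay above every day 0 library, and the day 4 and day 7 libraries overlapped. Col1a1 rose by 1.35 ± 0.24 on the log2 scale (SE; adjusted p = 1.8e-05, limma) and Col1a2 by 1.29 ± 0.25 (adjusted p = 7.1e-05). With every gene that had any reads in the fit, the adjusted p of Col1a1 was 0.187 and that of Col1a2 was 0.298, and all other settings tried called both higher.

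Col3a1, the single chain of type III, which forms thin fibrils alongside type I in soft tissue, was at 488, 588 and 384 RPKM on day 0, 1351, 1311 and 1450 on day 4, and 927, 773 and 844 on day 7. All 3 day 4 libraries were above all others. Col3a1 was still higher on day 7 than on day 0, by 0.82 ± 0.21 (adjusted p = 0.00165, limma; 0.168 with every gene that had any reads). Its neighbor on chromosome 1, Col5a2, lies 24614 bases away on the other strand and showed values of 637, 615 and 478, then 655, 712 and 705, then 613, 523 and 571, with a log2 fold change of -0.01 ± 0.20 (adjusted p = 0.976).

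Col5a1 and Col5a3 encode the other chains of type V, which sits inside type I fibrils and limits their width. Col5a1 was at 533, 542 and 463 RPKM on day 0, 668, 851 and 780 on day 4 and 856, 674 and 687 on day 7, and rose by 0.52 ± 0.20 (adjusted p = 0.0387, limma). This call is weak: the adjusted p was 0.0595 with the replicate number as a block and 0.0575 to 0.205 when any library but day 0 replicate 3 was left out. Col5a3, an α3 chain at a far lower level, was at 3.81, 4.33 and 2.24, then 11.4, 16.3 and 14.3, then 2.73, 2.08 and 2.45. Its 3 day 4 libraries thus stood at a mean of 4.04 times day 0 and 5.78 times day 7, and the log2 fold change between the end stages was -0.46 ± 0.19 (adjusted p = 0.0654). It passed as lower in 6 of 19 other settings, among them edgeR (0.0423) and DESeq2 (0.0446), and without day 0 replicate 3 it was -0.74 (adjusted p = 0.00114).

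The largest rises belonged to minor collagens that were close to silent on day 0. Col13a1 (chr10:61838236-61979108, minus strand), a transmembrane collagen found at cell-matrix contacts, was at 0.0774, 0.309 and 0.168 RPKM on day 0, 10.4, 11.8 and 11 on day 4, and 47.7, 47.9 and 41.2 on day 7. Behind these values stood 5, 17 and 6 reads on day 0 and 2354 to 3003 reads on day 7. The stages did not overlap at either step, and the day 7 mean was 247 times the day 0 mean. Col13a1 rose by 7.36 ± 0.20 on the limma scale (adjusted p = 2e-32), where the added 0.5 shrinks the change of genes that start so low, and edgeR's quasi-likelihood test on the recovered reads gave 8.11 (adjusted p = 1.5e-08).

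Col22a1 (chr15:71795795-72034227, minus strand), a fibril-associated collagen known from tissue junctions such as that of muscle and tendon, was at 0.0852, 0.0636 and 0.0421 RPKM on day 0, 4.76, 8.23 and 6.16 on day 4, and 10.2, 13.9 and 10.8 on day 7. The day 0 values rested on 11, 7 and 3 reads. The day 7 mean was 183 times that of day 0, and the log2 change was 6.63 ± 0.20 (adjusted p = 2.9e-31, limma).

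Col24a1 (chr3:145292472-145552011, plus strand) is a fibril-forming collagen with the shorter longest run of glycine triplets noted above, known from developing bone. Its runs of 5 or more triplets together held 327 triplets, against 355 in Col1a1. Col24a1 was at 0.459, 0.406 and 0.186 RPKM on day 0, 9.74, 9.35 and 9.76 on day 4, and 26.8, 24.8 and 24.4 on day 7. The replicates of the later stages lay close together, and the gene rose by 6.00 ± 0.19 (adjusted p = 8.5e-30, limma), a ratio of 72.3 between the means. Col27a1, the fibril-forming gene with the most similar longest run, was at 1.74 to 2.61 RPKM on day 0 and 2.27 to 3.19 on day 7. It did not pass the test (0.23 ± 0.18, adjusted p = 0.332), although edgeR gave an adjusted p of 0.0361.

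Col11a2 (chr17:34039437-34066685, plus strand) encodes the α2 chain of type XI, which nucleates thin fibrils and is best known from cartilage. It was at 26.3, 8.89 and 8.75 RPKM on day 0, 67.1, 85.6 and 76.3 on day 4 and 153, 133 and 137 on day 7, rising by 3.46 ± 0.22 (adjusted p = 1.3e-18, limma). Its partner Col11a1 stood at 166, 149 and 116, then 160, 162 and 165, then 216, 164 and 185. The change of Col11a1 was 0.40 ± 0.18 (adjusted p = 0.0857; 0.00358 with edgeR), so the 2 chains went from unlike levels on day 0 to similar ones on day 7.

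**Figure D3:**
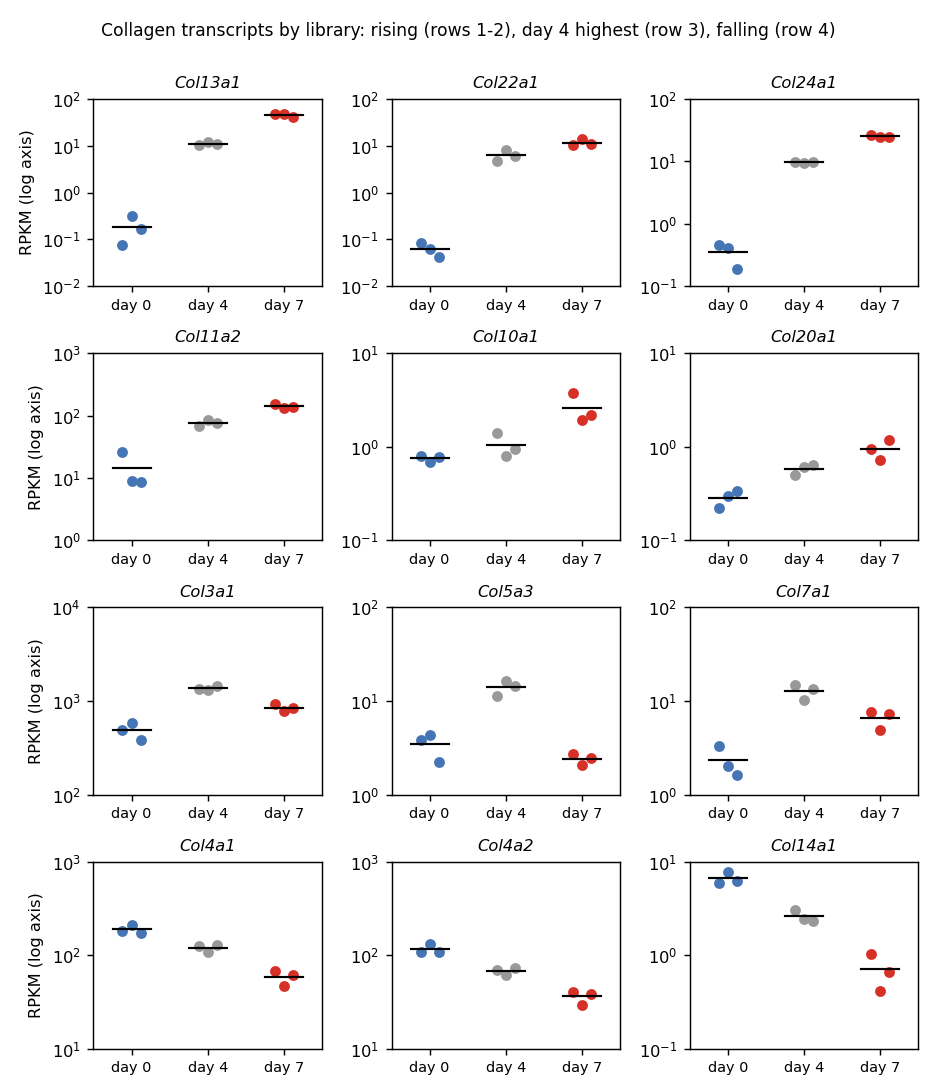
RPKM on a log axis (y) of 12 collagen genes in each library of days 0, 4 and 7 (x), points for libraries and bars for means. Col13a1, Col22a1, Col24a1, Col11a2, Col10a1 and Col20a1 rise over the stages without overlap, Col3a1, Col5a3 and Col7a1 are highest on day 4, and Col4a1, Col4a2 and Col14a1 fall over the stages without overlap.

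Among the remaining risers, Col10a1 and Col20a1 were low in all stages, at no more than 3.74 RPKM in any library. Col10a1, the short-chain collagen of hypertrophic cartilage, was at 0.797, 0.694 and 0.784 RPKM on day 0, 1.4, 0.804 and 0.957 on day 4, and 3.74, 1.91 and 2.19 on day 7 (1.54 ± 0.23, adjusted p = 5.2e-07, limma). Col20a1, a fibril-associated collagen, was at 0.221, 0.299 and 0.339, then 0.501, 0.601 and 0.642, then 0.943, 0.714 and 1.17 (1.38 ± 0.25, adjusted p = 2.1e-05). Both rose in order over the stages, though neither reached the level of Col24a1 on day 4.

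Col7a1, the anchoring fibril collagen that ties epithelium to dermis, was at 3.31, 2.02 and 1.62 RPKM on day 0, 14.7, 10.3 and 13.6 on day 4, and 7.61, 4.89 and 7.21 on day 7 (1.52 ± 0.19, adjusted p = 6.8e-09, limma). Keratinocyte markers summed to at most 1.14 RPKM in any library, and which cells gave the Col7a1 reads was not tested. Col26a1 was at 2.55, 1.76 and 1.59, then 8.2, 7.39 and 7.51, then 7.7, 4.12 and 5.46 (1.49 ± 0.20, adjusted p = 2.5e-08). Col15a1, a multiplexin of the basement membrane zone, was at 0.213, 0.171 and 0.224, then 1.01, 2.42 and 1.01, then 1.03, 1.31 and 0.625 (1.87 ± 0.25, adjusted p = 3.1e-08). For these 3 genes every day 4 library was above every day 0 library and no day 7 library was above the whole of day 4.

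The promoters of 4 of the 6 genes that rose over all stages are printed to show what their starts hold. The Col20a1 promoter is not printed, and Col22a1 had no window. RefSeq windows for GRCm38.p6 were taken from 250 bases before the annotated start to 30 bases from it onward, and 35 of the 44 members had 1 or more, leaving out Col1a1, Col2a1, Col4a3, Col5a2, Col9a3, Col12a1, Col14a1, Col22a1 and Col26a1. Capitals mark, on either strand, the TATA box TATAAA, the CCAAT box, the GC box GGGCGG, the Runx core TGTGGT and the E-box CACGTG. The windows are Col10a1 at chr10:34389731-34390010 (plus strand), Col11a2 at chr17:34038888-34039167 (plus), Col13a1 at chr10:61979079-61979358 (minus) and Col24a1 at chr3:145292222-145292501 (plus), each written 5′ to 3′ in the direction of the gene.
Col10a1: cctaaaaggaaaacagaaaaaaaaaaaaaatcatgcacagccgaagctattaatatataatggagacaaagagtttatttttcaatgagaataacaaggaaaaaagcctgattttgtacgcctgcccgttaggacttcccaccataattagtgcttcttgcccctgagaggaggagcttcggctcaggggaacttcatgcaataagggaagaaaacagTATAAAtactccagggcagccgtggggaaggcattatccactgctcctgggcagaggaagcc
Col11a2: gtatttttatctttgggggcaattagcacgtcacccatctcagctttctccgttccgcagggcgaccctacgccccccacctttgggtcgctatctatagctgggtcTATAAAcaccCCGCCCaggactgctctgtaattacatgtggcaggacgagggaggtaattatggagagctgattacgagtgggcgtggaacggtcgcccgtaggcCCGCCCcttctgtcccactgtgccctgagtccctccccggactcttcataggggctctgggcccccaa
Col13a1: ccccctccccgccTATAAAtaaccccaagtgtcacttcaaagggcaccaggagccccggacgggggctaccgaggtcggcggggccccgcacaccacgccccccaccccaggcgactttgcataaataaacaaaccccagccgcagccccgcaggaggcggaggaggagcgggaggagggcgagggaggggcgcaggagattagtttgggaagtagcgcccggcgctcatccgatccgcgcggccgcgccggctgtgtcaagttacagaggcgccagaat
Col24a1: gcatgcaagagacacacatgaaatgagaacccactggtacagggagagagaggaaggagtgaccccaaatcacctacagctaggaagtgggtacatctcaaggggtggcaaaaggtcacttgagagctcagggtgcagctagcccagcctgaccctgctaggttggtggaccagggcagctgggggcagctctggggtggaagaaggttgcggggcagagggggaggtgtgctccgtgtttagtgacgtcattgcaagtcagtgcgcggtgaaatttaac
TATAAA began 32 bases before the start in Col10a1, 143 before it in Col11a2 and 237 before it in Col13a1. The RefSeq start used for Col11a2, chr17:34039138, lies upstream of the start of its gene model given above, 34039437. All marked stretches are sequence matches, and their use was not tested. Over the 38 collagen windows TATAAA was present in 13.2%, against 13.1% of 32851 windows of all genes. GGGCGG was present in 60.5% of collagen windows against 34.7% of all, CCAAT in 34.2% against 36.1%, TGTGGT in 7.89% against 15.6% and CACGTG in none of the 38 against 6.79%. The windows were not matched for their share of G and C bases. That share ran from 36.1% in Col3a1 to 75% in Col5a1, with a median of 52.5% over the windows of all genes. The Col24a1 window held none of the 5, and neither did the Col20a1 window. In the Col20a1 window, all 250 bases before the annotated start lie within annotated exons.

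The main type IV chains fell together. Col4a1 and Col4a2, the chains of the common basement membrane trimer, lie head to head on chromosome 8 (chr8:11198423-11312826, minus strand, and chr8:11312805-11449287, plus strand), their models overlapping by 22 bases. Col4a1 was at 182, 211 and 172 RPKM on day 0, 124, 107 and 130 on day 4, and 68.1, 46.4 and 60.8 on day 7. Col4a2 was at 107, 132 and 107, then 69.1, 61.5 and 72.5, then 40.8, 29.6 and 38.4. For both genes the 3 stages lay in falling order without overlap. Col4a1 fell by 1.70 ± 0.17 on the log2 scale (adjusted p = 8.1e-12, limma) and Col4a2 fell by 1.67 ± 0.16 (adjusted p = 4.7e-12), and all 19 other settings tried gave the same calls.

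The X-linked pair Col4a5 and Col4a6 also lies head to head, with 1308 bases between the models, and the difference between the genes was not tested. Col4a5 was at 15, 10.2 and 8.49 RPKM on day 0, 10.4, 10.7 and 11.1 on day 4, and 6.8, 7.25 and 7.6 on day 7, and fell by 0.59 ± 0.17 (adjusted p = 0.00548, limma). Day 0 replicate 1 held the highest value, and without it the change was -0.36 (adjusted p = 0.15). Without day 7 replicate 1 it was -0.55 (adjusted p = 0.0532). Col4a6 stayed at or below 0.317 RPKM, on 5 to 33 reads on days 0 and 7, and did not pass the test (0.51 ± 0.28, adjusted p = 0.17). Col4a3 and Col4a4, the chains of the kidney and lung trimer, were under the filter, with at most 0.0783 RPKM.

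Other members that fell differ in class. Col14a1, a fibril-associated collagen of tendon and skin (chr15:55307750-55520803), was at 5.87, 7.7 and 6.26 RPKM on day 0, 3.07, 2.41 and 2.32 on day 4, and 1.04, 0.414 and 0.666 on day 7. It fell by 3.17 ± 0.21 on the log2 scale (adjusted p = 8.8e-18, limma), the largest fall among the 36 members tested. The 3 tendon markers listed also summed to less on day 7, as given above, and their part in this was not tested. Col18a1, the multiplexin that carries endostatin, was at 28.2, 22.3 and 20.1, then 11.1, 12.4 and 11.9, then 8.22, 11.2 and 10.1 (-1.25 ± 0.16, adjusted p = 1.3e-08). Most of its drop thus lay between day 0 and day 4. Col23a1, a transmembrane collagen, was at 1.07, 1.09 and 0.765, then 0.94, 1.05 and 0.923, then 0.37, 0.457 and 0.301 (-1.20 ± 0.23, adjusted p = 5.8e-05), and its day 0 and day 4 libraries overlapped. Col17a1, the hemidesmosome collagen, did not exceed 0.403 RPKM (-0.80 ± 0.27, adjusted p = 0.0198; 0.0511 with edgeR). Its reads were 26, 21 and 18 on day 0 and 17, 6 and 16 on day 7. This call is weak: it was kept in 11 of 18 other settings, and was also lost with DESeq2 and voomWithQualityWeights.

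Type VIII is a short-chain network collagen of 2 chains. Col8a1 was at 193, 275 and 165 RPKM on day 0, 319, 304 and 360 on day 4 and 195, 140 and 183 on day 7, highest on day 4, with no difference passing the test between the end stages (-0.27 ± 0.18, adjusted p = 0.26, limma). Col8a2 was at 293, 345 and 229, then 175, 146 and 164, then 158, 108 and 155, and fell by 1.04 ± 0.18 (adjusted p = 5.1e-06). From day 0 to day 4 the libraries of Col8a1 lay higher and those of Col8a2 lower, without overlap, a step that was not tested.

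Type VI was highest on day 4 as a set of 3 chains. Col6a1 was at 580, 578 and 461 RPKM on day 0, 698, 735 and 754 on day 4, and 557, 444 and 474 on day 7. Col6a2 was at 138, 143 and 122, then 205, 210 and 215, then 155, 119 and 126, and Col6a3 was at 156, 155 and 142, then 191, 214 and 203, then 146, 114 and 125. Every day 4 library of each chain was above all others, and the end stages differed by -0.13 ± 0.18, -0.01 ± 0.17 and -0.24 ± 0.17, none past the threshold (lowest adjusted p = 0.318, limma). The α4 to α6 chains, Col6a4, Col6a5 and Col6a6, were under the filter at no more than 0.038 RPKM. Col12a1, a fibril-associated collagen of tendon and periosteum among the 8 most abundant members, was at 244, 219 and 215, then 249, 233 and 250, then 248, 153 and 180 (-0.25 ± 0.19, adjusted p = 0.347). Its stages overlapped at both steps.

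Col2a1, Col9a1 and Col9a3, known from cartilage, were lower on day 7, and their values also split the libraries by replicate number. Col2a1, the fibril-forming chain of cartilage, was at 420, 140 and 158 RPKM on day 0, 145, 33.8 and 64.3 on day 4, and 92.8, 29.2 and 38.5 on day 7. Replicate 1 was the highest library in each stage, and the day 0 and day 7 libraries did not overlap. The 3 chains of type IX, which coats type II fibrils, showed the same lead of replicate 1. Col9a1 was at 21.1, 10.4 and 9.07, then 6.7, 3.29 and 4.08, then 8.32, 4.67 and 5.71. Col9a2 was at 7.95, 2.65 and 2.8, then 6.33, 2.41 and 3.14, then 5.63, 2.18 and 2.73. Col9a3 was at 33.9, 10.9 and 12.4, then 21.6, 7.83 and 10.7, then 12.8, 3.18 and 6.08. The lead of replicate 1 was not confined to the cartilage collagens. Col7a1 and Col26a1, given above, also had replicate 1 highest in each stage. On day 7 so did Col1a1, Col1a2, Col3a1 and Col12a1, among others, and the share over all genes was not counted. The chondrocyte marker Cnmd, chondromodulin, was at 16.5, 5.4 and 5.32, then 6.77, 0.698 and 2.02, then 2.78, 0.203 and 1.18, again with replicate 1 highest, and was chosen after its values were seen. Of the 10 chondrocyte markers listed, 3 had replicate 1 highest in every stage (Comp, Ucma and Cnmd). Other markers did not follow Cnmd: Comp was at 13.4, 5.45 and 5.48 on day 0 and 37.6, 20.4 and 15.4 on day 7, and Ihh was highest in replicate 3 on day 0, at 15.6 against 4.35 and 4.31. The 10 chondrocyte markers summed to 57.3 RPKM in replicate 1 and 30.4 and 41.5 in the others on day 0, and to 79.6 against 41.9 and 35 on day 7, and the part of cartilage cells in these values was not tested.

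Between the end stages, Col2a1 fell by 2.16 ± 0.26 on the log2 scale (adjusted p = 2.5e-09, limma). Leaving out replicate 1 of both stages left 2 libraries against 2, and the fall was then 2.15. With all libraries, the adjusted p of Col2a1 was 0.00511 with edgeR, 0.0107 with DESeq2 and 0.0998 with robust variances. Col9a1 fell by 1.04 ± 0.20 (adjusted p = 6.2e-05) and Col9a3 by 1.38 ± 0.27 (adjusted p = 7.6e-05). The Col9a3 call was lost with edgeR (adjusted p = 0.0513), DESeq2 (0.144), voomWithQualityWeights (0.128) and robust variances (0.274), and Col9a2 did not pass (-0.26 ± 0.26, adjusted p = 0.487). The 2 cartilage-associated collagens named above as rising, Col11a2 and Col10a1, therefore went the other way from Col2a1, and their replicate 1 was the highest library on day 0 and day 7.

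**Figure D4:**
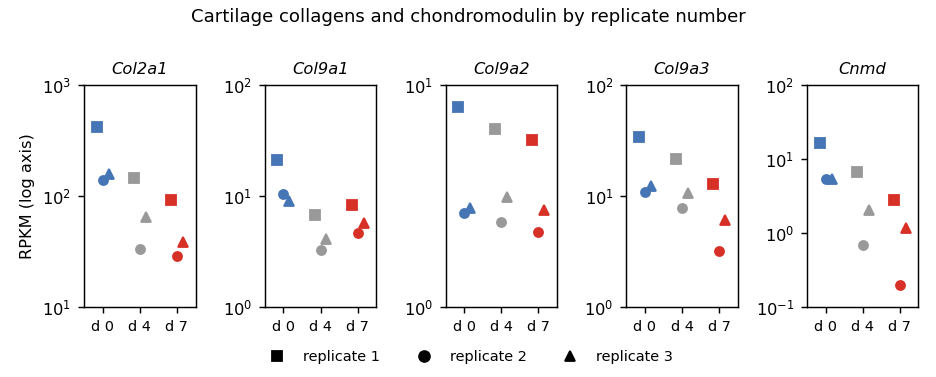
RPKM on a log axis (y) of Col2a1, the type IX chains and the chondrocyte marker Cnmd at days 0, 4 and 7 (x), with a marker shape for each replicate number. Replicate 1, the square, is the highest library of its stage in all 5 panels, as for Col2a1 at 420 against 140 and 158 on day 0. Cnmd was chosen after its values were seen, and replicate 1 led in every stage for 3 of the 10 chondrocyte markers listed.

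Chains of 1 trimer can be set against each other in each library, which removes anything that scales a library as a whole. The ratio of Col1a1 to Col1a2 was 1.33 ± 0.245 (SD, n = 3) on day 0, 1.26 ± 0.0315 on day 4 and 1.37 ± 0.0514 on day 7, and the end stages overlapped (exact permutation test, two-sided, p = 0.8). That of Col4a1 to Col4a2 was 1.64 ± 0.0565, 1.78 ± 0.0305 and 1.61 ± 0.0555 (exact p = 0.5). In both pairs the day 7 mean was close to that of day 0, at 1.03 and 0.981 times, while the genes themselves rose or fell.

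In the other pairs the end stages did not overlap, though no ratio passed a test. Col11a1 to Col11a2 was 6.33, 16.8 and 13.3 on day 0, 2.39, 1.9 and 2.16 on day 4, and 1.42, 1.23 and 1.35 on day 7, a ratio of means 9.1 times as high on day 0 as on day 7. Col5a1 to Col5a2 went from 0.895 ± 0.0666 through 1.11 ± 0.0873 to 1.30 ± 0.0971. Col8a1 to Col8a2 went from 0.726 ± 0.0701 to 2.03 ± 0.192 on day 4 and 1.24 ± 0.0599 on day 7. Col6a1 to Col6a2 was 4.01 ± 0.208 on day 0 and 3.69 ± 0.0807 on day 7, and Col6a3 to Col6a2 was 1.13 ± 0.0437 and 0.965 ± 0.0229. Each of the 5 gave an exact permutation p = 0.1, the smallest that 3 against 3 libraries can give, and an adjusted p = 0.14 over the 7 pairs compared.

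**Figure D5:**
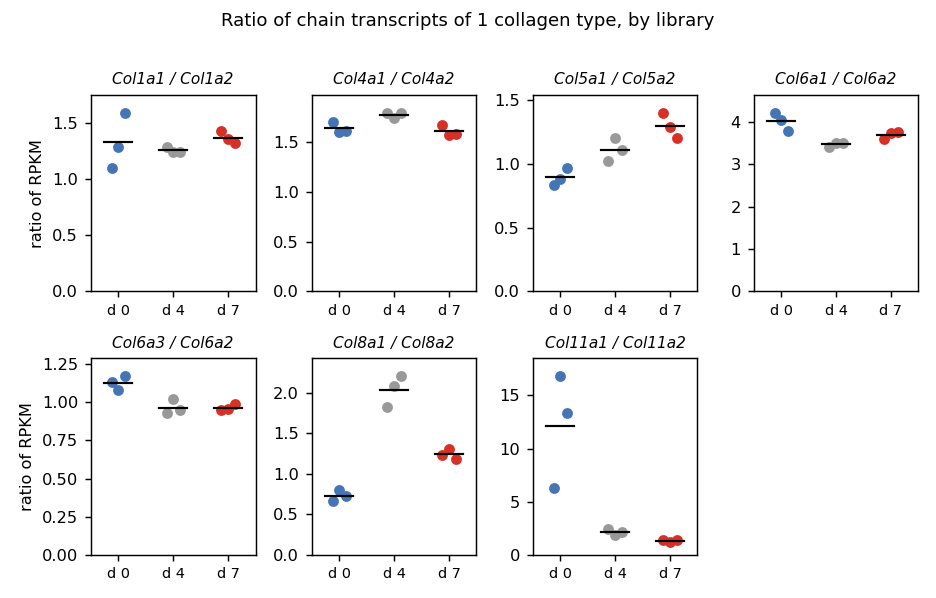
Ratio of the RPKM of chains of 1 collagen type (y axis, from 0) in each library of days 0, 4 and 7 (x), points for libraries and bars for means. Col1a1 to Col1a2 averages 1.33 on day 0 and 1.37 on day 7 and Col4a1 to Col4a2 1.64 and 1.61, while Col11a1 to Col11a2 drops from a mean of 12.1 on day 0 to 1.33 on day 7.

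The steps to and from day 4 differed in balance. Of 36 members that passed the filter for that step, 21 had all day 4 libraries above all day 0 libraries (58.3%, where 21.4% of all genes did), and 6 had them below (16.7%, where 22% of all genes did). From day 4 to day 7, 6 of 37 members lay above (16.2%, against 13.7% of all genes) and 15 below (40.5%, against 25%). Over the 3 stages, 9 of 36 members had every day 4 library above every other library, where 8.07% of all genes did, namely Col3a1, Col5a2, Col5a3, Col6a1, Col6a2, Col6a3, Col7a1, Col8a1 and Col16a1. The libraries of 6 members rose in order without overlap, where 3.07% of all genes did, and those of 3 members fell in order, where 4.36% did. Col16a1, a fibril-associated collagen, was at 65 to 88.9 RPKM on day 0, 107 to 117 on day 4 and 61.8 to 80.2 on day 7. The deeper day 4 libraries come from a separate table, and their counts carry no test.

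The 8 members under the filter were Col4a3, Col4a4, Col6a4, Col6a5, Col6a6, Col19a1, Col25a1 and Col28a1. Their highest value in any library was 0.239 RPKM, in Col28a1, whose reads were 14, 14 and 5 on day 0 and 1, 0 and 1 on day 7, and Col6a5 had no more than 2 reads in a library. No change was tested for them. Exon bases shared with another gene model were at most 6.07% of a member, in Col9a3 against Tcfl5 on the other strand, and the strand setting of the counting is not given in the sources used here.

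Genes that build collagen were taken as a list of 35: the prolyl and lysyl hydroxylases, collagen galactosyltransferases, chaperones, export and regulatory genes, procollagen proteinases and their enhancers, lysyl oxidases, and Sparc, a collagen-binding matrix protein. Of the 34 tested, 21 rose and 2 fell on day 7, where 12.6% and 18.6% of all genes did. The number higher ran from 14 with replicate 1 of both stages left out to 28 with voomWithQualityWeights. Over all 12712 genes tested, 1128 and 3148 were higher in the same settings. The largest rises past the threshold were P3h2, a prolyl 3-hydroxylase (0.767, 0.741 and 0.52 RPKM on day 0, 12.7, 8.05 and 7.13 on day 7; 3.51 ± 0.21, adjusted p = 2.3e-19, limma), and P4ha2, a catalytic subunit of prolyl 4-hydroxylase (17.8, 14.4 and 11.2, then 141, 110 and 108; 3.05 ± 0.16, adjusted p = 6.1e-21). The 2 that fell were Loxl1, a lysyl oxidase of elastic fibres (88.7, 87.9 and 87.8, then 60, 52.9 and 55.1; -0.66 ± 0.15, adjusted p = 0.00057), and P4ha3 (24.7, 25.7 and 24.9, then 17.8, 15.5 and 18.5; -0.54 ± 0.16, adjusted p = 0.00547), while the other 2 prolyl 4-hydroxylase catalytic subunits were among the genes that rose. The call of P4ha3 was lost without day 7 replicate 2 and without replicate 1 of both stages.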

How the data were processed

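Total RNA from 9 samples, 3 a stage, was depleted of ribosomal RNA (Ribo-Zero Gold). Per the labels and the study's methods, the authors aligned reads to GRCm38 with STAR 2.0.4b and counted them per gene with featureCounts (1.45 in the labels). The authors deposited CPM (scaled to reads on genes) and RPKM (scaled to gene length too), with day 4 in tables of its own (40526 genes in all tables). CPM steps gave whole reads for all values (tolerance 0.1 read). Genes whose CPM averaged 1 or more were tested on log2(CPM + 0.5) with limma 3.58.1 (variance trend). The alternatives used edgeR 4.0.16 and DESeq2 1.42.0 on recovered reads, other pseudocounts, filters and scalings, and libraries left out. Chain ratios were tested by exact permutation. The scripts were tested on simulated data. The members, the gene lists and the tests were chosen with earlier results of these data known. Values per library are given for members past the threshold with a log2 change of at least 1, for the 8 highest by mean RPKM and for their partner chains. Values of Col4a5, Col16a1, Col27a1 and Cnmd were added after they were seen. Replicates of a stage differed by more than sampling noise, and nothing says how the cultures were paired across stages. Intervals on log2 changes are limma's moderated standard errors. Their variances lean on all genes (prior 42.9 against 4 residual degrees of freedom) and can be narrower than the spread between a gene's libraries. Other intervals are SDs between libraries. Gene models and sequences came from GENCODE M21 and RefSeq, both for GRCm38, with 40254 of 40548 gene IDs found.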

Additional observations from a re-analysis of the deposited data

How the results depend on the processing

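The counts of collagen genes stayed within 1.5 times under all 19 alternatives, while the counts over all genes moved more. Over all genes, 1128 were higher without replicate 1 of both stages and 3148 with voomWithQualityWeights, against 1602 in the fit reported above. The collagen genes higher in these settings were 12 and 16. With 1 library, or replicate 1 of both stages, left out, the collagen counts were 12 to 13 higher and 10 to 12 lower, with a median log2 change of -0.19 to 0.04. The biosynthesis counts were then 14 to 23 higher and 1 to 3 lower. A replicate block gave 12 higher and 11 lower collagen genes, a median of -0.07, and 20 higher and 2 lower biosynthesis genes, and changed the call of Col5a1 (adjusted p = 0.0595) alone among the collagens. Same-numbered libraries of days 0 and 7 did not deviate together (correlations -0.02, -0.18 and -0.44), so the numbers were not taken as pairs. Median-of-ratios scaling moved the median of all genes from -0.11 to -0.01. Left out alone, day 0 replicate 3 took the lower calls over all genes from 2369 to 4696. Among single members, changes of sign occurred in 3 genes, which passed in neither case: Col6a2 was at 0.10, 0.07, 0.09, 0.10 and 0.11 and Col5a2 at 0.10, 0.07, 0.10, 0.10 and 0.10 under median-of-ratios scaling, scaling to reads outside the collagens, edgeR, DESeq2 and voomWithQualityWeights. Leaving out libraries put Col6a2 at -0.13 to 0.06, Col5a2 at -0.14 to 0.07 and Col9a2 at -0.65 to 0.24, and voomWithQualityWeights put Col9a2 at 0.15. With 1 library left out, the Col1a1 to Col1a2 ratio on day 7 was 0.953 to 1.15 times that on day 0 and the Col4a1 to Col4a2 ratio 0.962 to 1 times, both turning without day 0 replicate 1. The cause was not tested. Low reads at day 0 limit the fold changes of Col13a1, Col22a1 and Col24a1, and the separate day 4 tables allow no test. Without replicate 1 of both stages, an alternative chosen after seeing the data, Col4a5 changed by -0.32 (adjusted p = 0.397).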
